A study of Macaca mulatta with 18 samples.

Results

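Cilia genes were followed here between the GZ and CP tissues of the fetal rhesus macaque brain. The members are all genes whose macaque symbol starts with IFT, BBS, TCTN, NPHP, DNAH or DNAI followed by a digit, or with CFAP. By this rule 78 of 22345 genes in the RNA table are members: 17 IFT, 4 BBS, 2 TCTN, 3 NPHP, 37 CFAP, 10 DNAH and 5 DNAI genes. The first 4 families (26 genes) are called primary-cilium families below and the last 3 (52 genes) motile-cilium families. Another 13 symbols of the rule in the reference table, among them BBS10, TCTN2, IFT25, CFAP43 and DNAH12, were not matched to the RNA table and are not analysed here.

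A primary cilium is a single, immotile antenna built on the older centriole, and most cells that are not dividing can grow one. In the developing cortex radial glia extend it into the ventricle, and Hedgehog signals pass through it. Intraflagellar transport (IFT) trains carry cargo along the axoneme: IFT-B moves outward with kinesin-2, IFT-A moves back with dynein-2, the BBSome carries membrane proteins, and TCTN and NPHP proteins gate the base. Motile cilia, which ependymal cells carry in large numbers, add dynein arms (DNAH heavy chains and DNAI intermediate chains), radial spokes, a central pair and proteins inside the doublet microtubules, many of them named CFAP. The name CFAP stands for cilia and flagella associated protein and covers some genes that also serve primary cilia, so the grouping by symbol is approximate.

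All animals were wild type and at embryonic day 84, and no treatment is named. The RNA comparison had 3 libraries of GZ and 3 of CP, and a CP and a GZ library share each of the labels RM01, RM02 and RM03 (numbers 1 to 3 here). What these labels stand for is not stated. Neither abbreviation is spelled out there, and nothing says that the libraries stem from different animals. The p-values therefore measure the spread among these libraries alone, and that spread may be technical. Hi-C, DNase and CTCF lists of the series were not assigned to genes here. Values are log2 FPKM normalized by the authors with cqn, which adjusts for gene length and GC content. Levels of different genes are set side by side on this scale below. They also depend on the gene annotation and read counting, which are unknown here. Library medians over all genes ran from 1.82 to 1.88, and the read depth is unknown.

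The tissue labels were checked against marker lists. All 12 cell cycle genes were higher in GZ, led by MKI67, a proliferation marker (2.08 ± 0.28 SE on the log2 scale, GZ minus CP), and 8 of 10 neuron markers were higher in CP. All 6 measured vessel markers were higher in CP, and among 8 radial glia markers 3 were higher in GZ and 2 in CP. Of 5 interneuron markers 4 were higher in GZ and 1 in CP, and none of 3 microglia markers passed. The part of such cell types in the results below was not tested, and in bulk tissue fewer cells of a type and less RNA per cell cannot be told apart. Deviations from the tissue mean, compared across genes, correlated at -0.381 between CP and GZ libraries numbered 1, against 0.299 for number 2 and 0.347 for number 3. Differently numbered pairs ran from -0.524 (CP 3 with GZ 2) to 0.200 (CP 2 with GZ 1). These values are not independent, since each deviation is taken from a mean of 3 libraries. Counts without both libraries numbered 1 are therefore given beside the main ones.

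Most cilia genes did not pass the test between tissues, and the members with the largest differences were CFAP genes higher in CP. With limma across all genes with a mean of 0 or more on the log2 scale, 60 members were tested and 16 passed an adjusted p of 0.05. In the primary-cilium families 3 genes stood higher in GZ and 3 in CP, and 19 of 25 did not pass. In the motile-cilium families 3 stood higher in GZ and 7 in CP, and 25 of 35 did not pass. Of all 13460 genes tested 45.4% passed (24.5% higher in GZ and 20.9% higher in CP), against 24.0% of the primary and 28.6% of the motile members. The motile shortfall lay in low genes. With a mean of 2 to 6, 46.7% of motile members passed, near the 46.1% of all such genes. With a mean under 2, 3 of 20 motile members passed, against 37.3% of all such genes. Primary members with a mean of 2 to 6 passed less often (22.7%). These shares by level are descriptions, with no test. No overlap between the tissues' values was found for 10 primary (40.0%) and 10 motile (28.6%) members, against 56.4% of all genes tested. Without both libraries numbered 1, 2 of 25 primary and 6 of 35 motile members passed, where 3363 of all 13460 genes did.

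Median differences were small in both groups of families. The median GZ minus CP difference was -0.04 over the primary members tested and -0.13 over the motile ones, against 0.05 over all genes tested. Without CP replicate 3 the motile median was -0.36 and without both libraries numbered 1 it was -0.05. A difference of at least 1 on the log2 scale with an adjusted p under 0.05 was reached by 4 of 35 motile and 0 of 25 primary members. Of all 13460 genes tested 1676 (12.5%) reached it. Whether primary and motile families differ from each other was not tested.

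**Figure D1:**
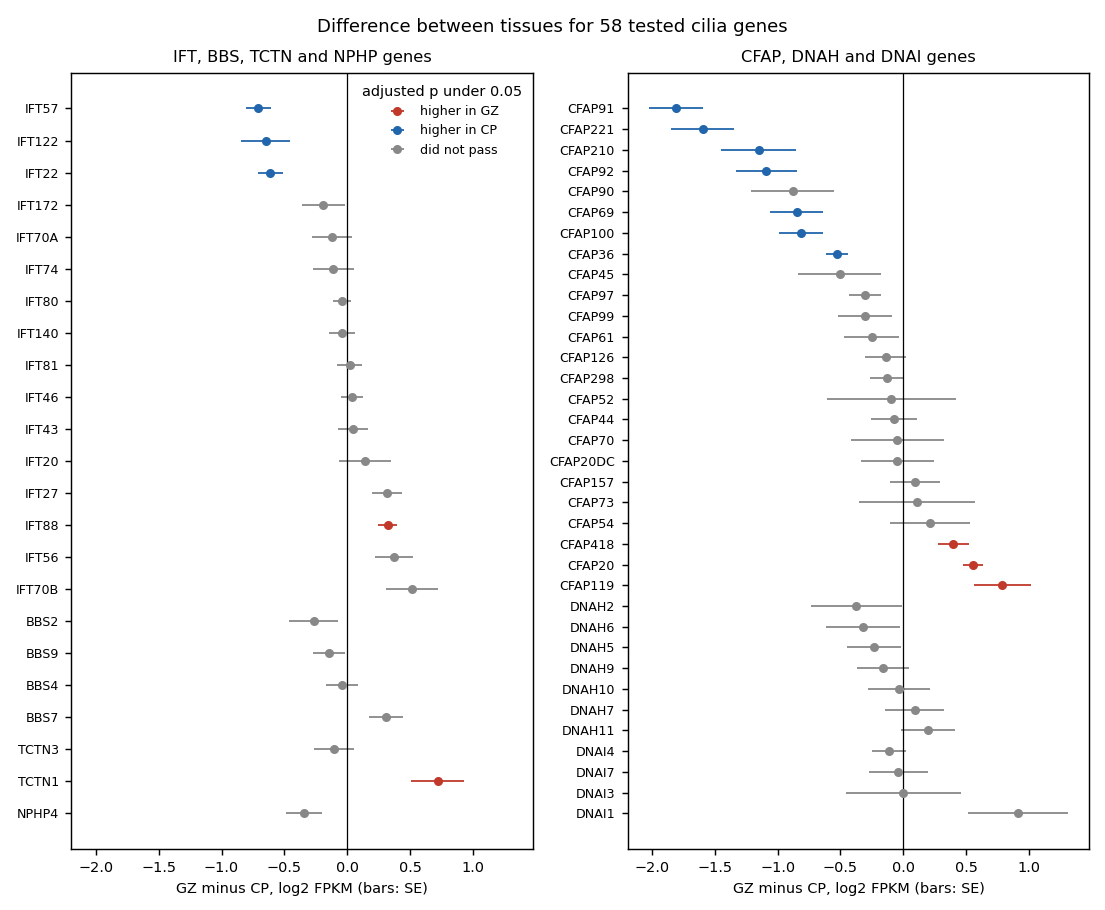
Difference between tissues (GZ minus CP, log2 FPKM, x axis) for 23 of the primary-cilium (left) and 35 motile-cilium (right) genes tested, with bars of 1 standard error. Red points were higher in GZ and blue points higher in CP by limma at an adjusted p under 0.05, and the blue points farthest from 0 are CFAP91 and CFAP221.

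Of 17 IFT genes 16 were tested. CP had the higher level of 3 and GZ of 1, which is 25.0% in all against 45.4% of all genes tested. The tissues' values did not overlap for 7 of the 16 (43.8%), against 56.4% of all genes tested. Differences ran from -0.71 to 0.52 with a median of -0.01. IFT57, a peripheral IFT-B subunit, had log2 values of 5.35, 5.53 and 5.24 in CP libraries 1, 2 and 3 and of 4.73, 4.73 and 4.54 in the GZ libraries in the same order. Every CP library lay above every GZ library, and IFT57 was 1.63-fold higher in CP (difference, GZ minus CP, -0.71 ± 0.10 SE, adjusted p = 0.0014). The small GTPase-like core subunit gene IFT22 had 4.63, 4.46 and 4.41 in CP and 3.87, 3.99 and 3.81 in GZ. Its CP and GZ values did not overlap, and the CP level was 1.53-fold higher (-0.61 ± 0.10, adjusted p = 0.0023). Both calls held under each of the 15 alternative settings.

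IFT88 went the other way. This core IFT-B subunit, whose loss in mice prevents normal cilia, had 5.10, 5.06 and 5.07 in CP and 5.33, 5.49 and 5.37 in GZ. The CP values lay within 0.05 of each other and below all GZ values, a 1.25-fold difference in favour of GZ (0.32 ± 0.08, adjusted p = 0.011). Without both libraries numbered 1 its adjusted p was 0.072. IFT27, a small GTPase-like subunit that links IFT to the BBSome and the IFT gene with the highest mean (5.40), had 5.44, 5.09 and 5.19 in CP and 5.50, 5.44 and 5.73 in GZ. All GZ values of IFT27 exceeded the highest CP value, GZ library 2 by a hair, and it did not pass (0.32 ± 0.12, adjusted p = 0.059), although it did without CP replicate 1 (adjusted p = 0.028).

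Among the other core IFT-B genes, IFT81, IFT74 and IFT46 had differences of 0.02 ± 0.10, -0.11 ± 0.16 and 0.04 ± 0.09. IFT56 and IFT70B stood higher in all GZ libraries than in any CP library and missed the threshold (0.37 ± 0.15, adjusted p = 0.077, and 0.52 ± 0.21, adjusted p = 0.074). Both passed without the mean-variance trend in limma (adjusted p = 0.029 and 0.016). IFT70A and IFT70B are near-identical copies whose reads the authors' counting could split, so their values (means of 2.48 and 0.67) are uncertain. The peripheral genes IFT80, IFT172 and IFT20 had differences of -0.04 ± 0.07, -0.19 ± 0.17 and 0.14 ± 0.21. IFT80 had the most even values among these 3, between 5.27 and 5.42 in the 6 libraries.

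In IFT-A, the complex of the return journey, IFT122 was higher in CP, and IFT140 and IFT43 were level. TTC21B, an IFT-A gene outside the symbol rule, was higher in GZ and is given below. IFT122 had 3.42, 3.96 and 3.20 in CP and 2.94, 2.92 and 2.78 in GZ. The groups did not overlap, CP library 2 stood highest, and the CP level of IFT122 was 1.57 times that of GZ (-0.65 ± 0.19, adjusted p = 0.027). The call was lost without CP replicate 1 or GZ replicate 1, 2 or 3 (adjusted p = 0.0501, 0.060, 0.054 and 0.060). It was also lost without both libraries numbered 1 (adjusted p = 0.1). IFT140 and IFT43 had means of 4.20 and 4.17 in CP and of 4.16 and 4.22 in GZ, with differences of -0.04 ± 0.10 and 0.05 ± 0.12. IFT52, a core IFT-B gene, lay far below the other members of its family with values from -4.31 to -2.06 and was not tested. The gene annotation behind these values is unknown, so they do not show that IFT52 RNA was absent.

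The 4 BBS genes, all subunits of the BBSome coat, did not pass in the main fit, where 45.4% of all genes tested did. All 4 had overlapping groups, whereas 56.4% of all genes tested had none. BBS7 had the highest mean (4.64) and the largest difference, with 4.59, 4.35 and 4.53 in CP and 4.74, 4.57 and 5.07 in GZ. The groups overlapped by GZ library 2, and the difference was 0.31 ± 0.14 (adjusted p = 0.102), or 0.42 without GZ replicate 2 (adjusted p = 0.047). BBS4 was level (-0.04 ± 0.13), and BBS9 and BBS2 had differences of -0.14 ± 0.13 and -0.27 ± 0.19. BBS2 was uneven in CP, with 4.17 in library 2 against 3.70 and 3.38 in libraries 1 and 3.

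At the transition zone TCTN1 was higher in GZ. TCTN1, a tectonic protein gene of the gate, had 0.87, 1.11 and 1.38 in CP and 1.70, 1.72 and 2.09 in GZ. All GZ values lay above all CP values, a 1.65-fold difference (0.72 ± 0.21, adjusted p = 0.024). Leaving out CP replicate 1, CP replicate 2 or GZ replicate 3 ended that call (adjusted p = 0.071, 0.058 and 0.067), as did leaving out both libraries numbered 1 (0.114).

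TCTN3 and NPHP4 had the higher mean in CP and did not pass. TCTN3 had the higher mean of the TCTN genes (3.03), with 2.93, 3.39 and 2.92 in CP and 3.07, 2.88 and 2.97 in GZ. NPHP4 had the highest mean of the NPHP genes (3.67), with 3.77, 4.13 and 3.64 in CP and 3.56, 3.53 and 3.42 in GZ. Its CP values all exceeded the GZ values, and the difference was -0.34 ± 0.14 (adjusted p = 0.084).

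**Figure D2:**
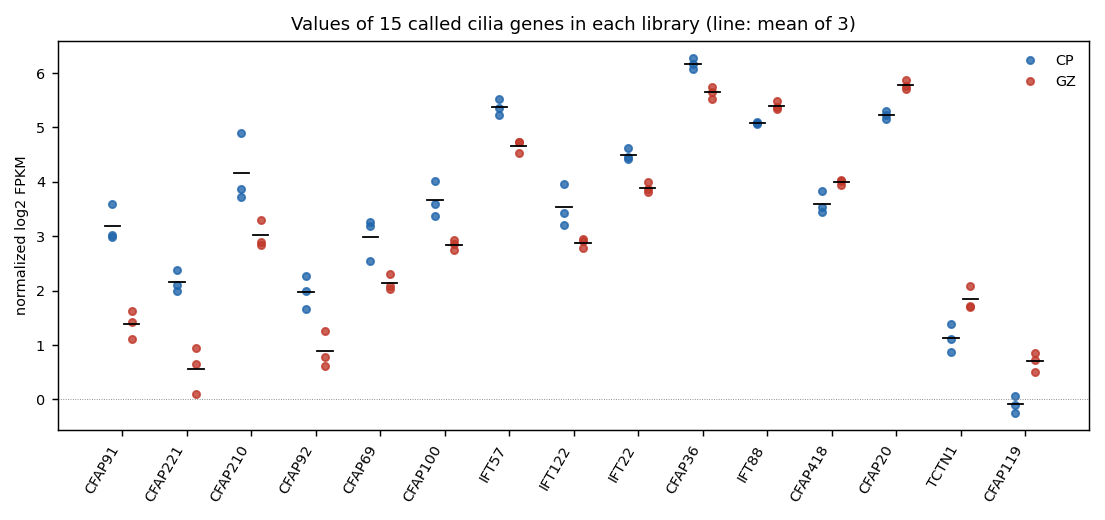
Normalized log2 FPKM (y axis) of 15 of the called cilia genes in each CP (blue) and GZ (red) library, ordered by their difference, with black lines for the mean of 3. For CFAP91 and CFAP221 the lowest CP value is more than 1 above the highest GZ value, and for IFT88 and CFAP418 the tissues lie within 0.5 of each other on average.

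CFAP genes held the largest differences of all members. Of 37 genes 24 were tested. CP had the higher level of 7 and GZ of 3, which is 41.7% in all, close to the 45.4% of all genes. CFAP91, a protein of the radial spoke base, had 3.01, 3.58 and 2.99 in CP and 1.63, 1.11 and 1.42 in GZ. No GZ library came within 1 unit of the lowest CP library, and CFAP91 was 3.51-fold higher in CP (-1.81 ± 0.22, adjusted p = 6.13e-04). CFAP221, a protein of the central apparatus, had 2.11, 2.38 and 2.00 in CP and 0.94, 0.65 and 0.10 in GZ. Its groups were also more than 1 unit apart, and the CP level was 3.02-fold higher (-1.60 ± 0.25, adjusted p = 0.0019).

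CFAP210, which lies inside the doublet microtubules, had 3.87, 4.90 and 3.73 in CP and 2.90, 3.30 and 2.84 in GZ. CP library 2 stood a full unit above the other CP libraries, and CFAP210 was 2.22-fold higher in CP (-1.15 ± 0.30, adjusted p = 0.016). Without GZ replicate 1 its adjusted p was 0.0504, and without both libraries numbered 1 it was 0.065. CFAP92 was 2.13-fold, CFAP69 1.80-fold, CFAP100 1.76-fold and CFAP36 1.44-fold higher in CP. CFAP69 belongs to the central apparatus, CFAP100 to a complex that modifies inner dynein arms, and CFAP36 binds the small GTPase ARL3. Except for CFAP69 without both libraries numbered 1 (adjusted p = 0.076), these 4 calls held under all alternatives, as did those of CFAP91 and CFAP221.

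Of the CFAP genes higher in GZ, CFAP20 had the smallest standard error. This protein sits at the inner junction of the doublet microtubules, and its gene had 5.30, 5.22 and 5.15 in CP and 5.86, 5.77 and 5.71 in GZ. The groups were far apart relative to their spread, and CFAP20 was 1.47-fold higher in GZ (0.56 ± 0.08, adjusted p = 0.0012) in the main fit and under every alternative. CFAP119 had 0.06, -0.24 and -0.09 in CP and 0.86, 0.73 and 0.51 in GZ, a 1.73-fold difference at low levels (0.79 ± 0.22, adjusted p = 0.022). CFAP418, a gene of inherited retinal dystrophy, had 3.53, 3.44 and 3.82 in CP and 3.94, 4.03 and 4.02 in GZ and was 1.32-fold higher in GZ (0.40 ± 0.12, adjusted p = 0.031). Neither of the last calls was stable: CFAP119 was lost without CP replicate 2 or 3 or GZ replicate 1 or 2 (adjusted p = 0.060, 0.054, 0.083 and 0.072). CFAP418 was lost without CP replicate 1 or 2 or GZ replicate 1, 2 or 3 (adjusted p = 0.089, 0.082, 0.071, 0.085 and 0.060). Without both libraries numbered 1 CFAP119 and CFAP418 were also lost (adjusted p = 0.099 and 0.165).

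The highest CFAP level was that of CFAP36, with 6.27, 6.16 and 6.07 in CP and 5.65, 5.53 and 5.75 in GZ. CFAP20 (mean 5.50), CFAP97 (4.44), CFAP126 (4.19) and CFAP298 (4.15) followed. CFAP36 and CFAP20 lay above IFT27, the highest of the IFT genes (5.40), and the other 3 near the IFT median of 4.14. The median CFAP gene was at 1.20.

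Among further CFAP genes of the same axonemal structures, CFAP61, CFAP54 and CFAP73 did not pass. CFAP61 sits with CFAP91 at the radial spoke base and had a difference of -0.25 ± 0.22 SE. CFAP54 belongs with CFAP221 to the central apparatus and had 1.40 ± 0.45 in CP and 1.61 ± 0.51 in GZ (SD, n = 3). CFAP73, the partner of CFAP100, had -0.04 ± 0.89 in CP and 0.06 ± 0.44 in GZ. The differences between partners were themselves not tested. CFAP90 reached -0.88 ± 0.33 with overlapping groups (adjusted p = 0.061) and it passed when CP replicate 3 or GZ replicate 2 was left out (adjusted p = 0.013 and 0.042). CFAP97 had -0.30 ± 0.13 (adjusted p = 0.086) and it passed when CP replicate 2 or GZ replicate 3 was left out (adjusted p = 0.028 and 0.047).

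None of the 7 tested DNAH genes, which encode dynein heavy chains, passed limma's test. Of all genes tested 45.4% passed, and of those with a mean under 2, 37.3% did. Over the 10 DNAH genes, mean levels ran from -2.06 for DNAH8 to 1.93 for DNAH10. Of 7 tested, differences ran from -0.37 to 0.20 and all groups overlapped. No overlap was found for 56.4% of all genes tested and for 47.8% of those with a mean under 2. DNAH10, an inner arm heavy chain, had 2.37, 2.00 and 1.47 in CP and 2.09, 1.69 and 1.96 in GZ. DNAH2, also of the inner arms, had the largest difference (-0.37 ± 0.36, adjusted p = 0.436), with 0.36, 0.78 and -0.54 in CP and -0.32, 0.07 and -0.28 in GZ. The outer arm chains DNAH5, DNAH9 and DNAH11 had differences of -0.23 ± 0.21, -0.16 ± 0.21 and 0.20 ± 0.22. Standard errors of the DNAH genes tested were 0.21 to 0.36, against 0.08 for IFT88, so a difference as small as that of IFT88 was not detectable here.

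DNAI genes, the intermediate chains, were spread over a wider range of levels. None of the 4 tested passed in the main fit, where 45.4% of all genes tested did. All 4 had overlapping groups, whereas 56.4% of all genes tested had none. DNAI4, a chain of the inner arms, had the highest mean (3.41), with 3.48, 3.59 and 3.34 in CP and 3.44, 3.49 and 3.13 in GZ, and did not pass. DNAI1, a chain of the outer arms, had 1.47, 1.13 and 0.33 in CP and 1.83, 2.59 and 1.25 in GZ. GZ library 3 fell inside the CP range, and the difference was 0.91 ± 0.40 (adjusted p = 0.097), or 1.24 without GZ replicate 3 (adjusted p = 0.034). DNAI2, the outer arm partner of DNAI1, lay between -1.58 and -0.69 in all libraries and was not tested. DNAI7 and DNAI3 had differences of -0.04 ± 0.23 and 0.00 ± 0.46.

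The 18 members not tested had means between -2.79 and -0.02, and 17 of them belong to the motile families. With no filter on low values, CFAP47, a protein of the central apparatus, passed with -0.16, -0.18 and 0.24 in CP and -1.10, -1.13 and -0.78 in GZ (-0.97, adjusted p = 0.014). CFAP57, CFAP77 and CFAP58 were also higher in all CP libraries than in any GZ library, and DNAH1 was higher in all GZ libraries, without passing (adjusted p = 0.094, 0.126, 0.054 and 0.065). The tissues overlapped for all other members not tested. No overlap was found for 56.4% of all genes tested and for 47.8% of those with a mean under 2. Without the filter 6222 of all 22345 genes passed.

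Motile-cilium genes varied more between CP libraries than the median of all genes tested, and some marker lists did too. The median SD between CP libraries was 0.335 for motile and 0.172 for primary members, against 0.150 for all genes tested, and between GZ libraries it was 0.198, 0.095 and 0.148. Low genes vary more, so genes with a mean under 2 were also compared with each other: the median CP SD was 0.409 for 20 motile members and 0.283 for all 2529 such genes, and in GZ it was 0.207 and 0.270. CP library 1 was the highest of the CP libraries for 24 of 35 motile members (68.6%) and CP library 3 the lowest for 28 (80.0%). Over all genes tested these shares were 36.6% and 32.4%, and over the primary members 40.0% and 64.0%. Among marker lists the median CP SD was 0.341 for cell cycle, 0.328 for vessel, 0.275 for radial glia and 0.132 for neuron genes. The first 2 also had a high median SD in GZ (0.419 and 0.655). A high CP library 1 was not particular to motile members. Its median deviation from the CP mean was 0.39 for cell cycle markers and 0.25 for motile members. These are descriptions of 3 libraries, with no test.

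The members with the widest CP range, chosen after their values were seen, were CFAP52, DNAI3, CFAP73 and CFAP70. CFAP52, a protein inside the doublet microtubules, had 1.37, 0.56 and -0.83 in CP and -0.05, 0.54 and 0.31 in GZ. DNAI3 had 1.04, 0.65 and -0.85 in CP and 0.27, 0.43 and 0.14 in GZ. In both, CP library 1 was above and CP library 3 below every GZ library, so their near-zero tissue differences rest on CP libraries that disagree.

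FOXJ1, the master transcription factor of motile cilia, followed the same library order, with 4.01, 2.89 and 2.16 in CP and 2.59, 3.41 and 3.51 in GZ (difference 0.15 ± 0.45, adjusted p = 0.815). The summed level of the 7 measured ependyma and choroid plexus markers ran from 3.56 to 4.89 in CP and from 3.83 to 4.29 in GZ on the log2 scale. This sum is over unlogged values and includes FOXJ1, the highest of the 7 on average, and RSPH1. It is therefore not a measure separate from these genes. CLIC6, FOLR1 and TMEM212 of the same list were below -1 in every library. RSPH1, a radial spoke gene on that list named here after its values were seen, had 2.82, 1.92 and 0.56 in CP. The microglia gene TYROBP, named likewise, had the same order in CP, with 3.08, 2.46 and 1.91. So did OTX2 of the ependyma and choroid plexus list (0.09, 0.01 and -0.83) and the radial glia markers VIM, SLC1A3 and PTPRZ1. These were also named after their values were seen. Some markers had another order in CP, among them the radial glia markers PAX6, NES, GLI3, PROM1 and HOPX. RARRES2, the called gene of the ependyma and choroid plexus list (1.89-fold higher in CP, adjusted p = 0.0087), had 2.26, 2.01 and 2.18 in CP. The microglia genes C1QC and CSF1R were highest in CP library 1 (4.58 and 5.44) and lowest in CP library 2 (4.01 and 4.92). The part of ependymal or other cells in the spread was not tested. By contrast CFAP91, CFAP221 and CFAP210 were highest in CP library 2.

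**Figure D3:**
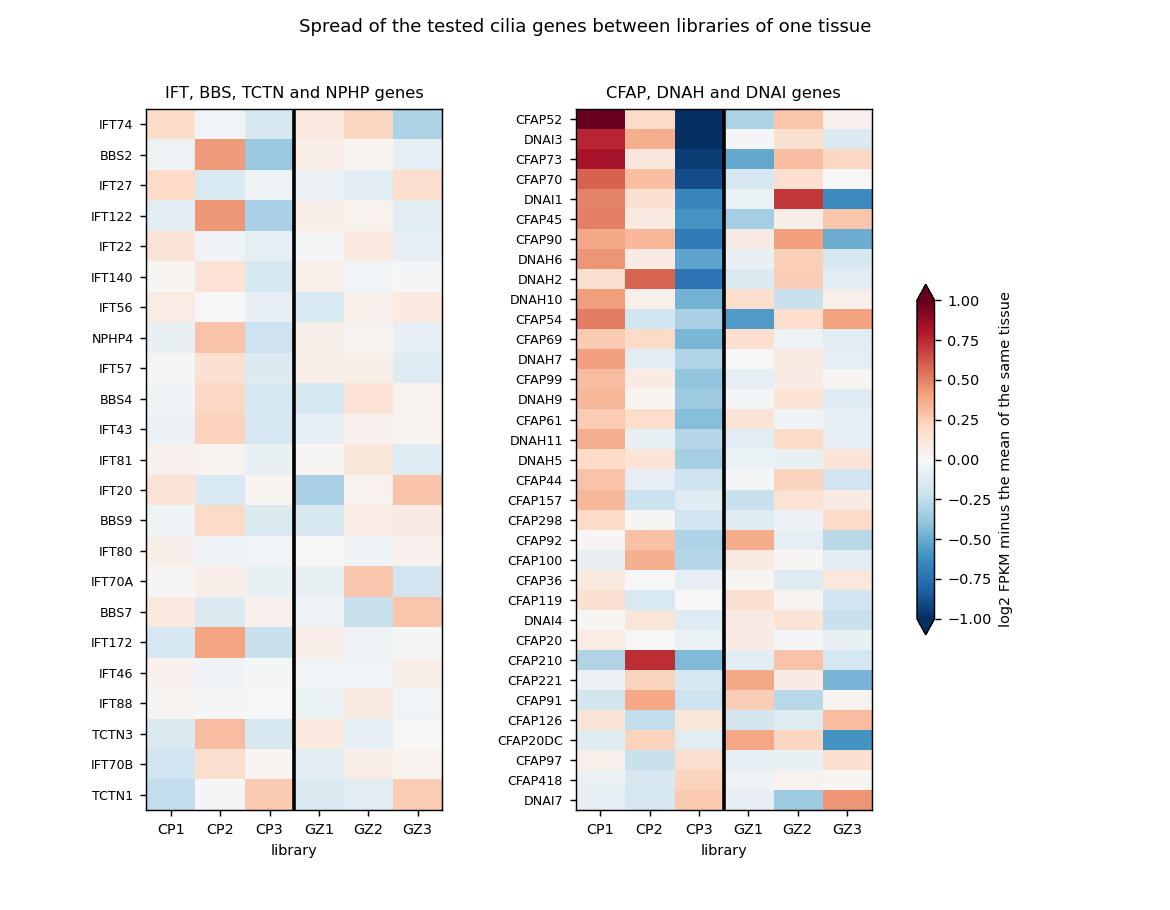
Deviation of 58 tested cilia genes (rows) from the mean of its own tissue in each library (columns), in log2 FPKM, with red above and blue below the mean and rows sorted by CP1 minus CP3. CP1 is red and CP3 blue for most motile-cilium genes (right), whereas the primary-cilium genes (left) are paler.

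**Figure D4:**
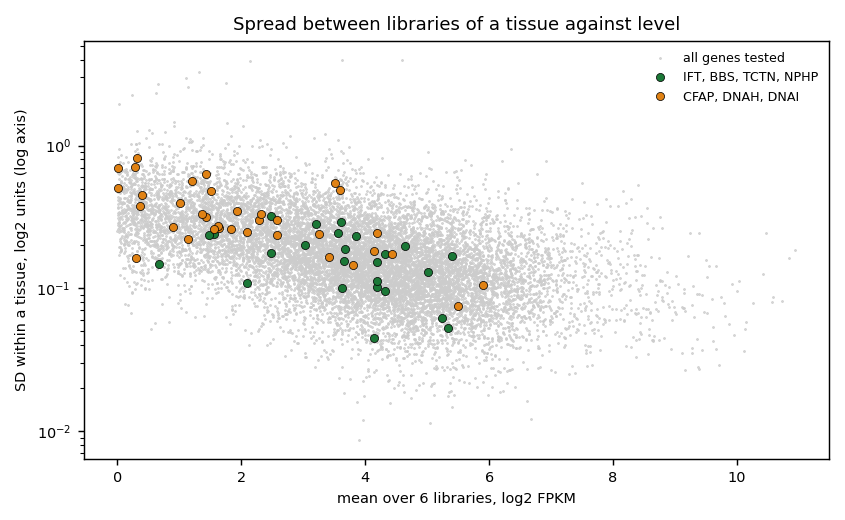
SD between libraries of the same tissue (log axis, log2 units, pooled over both tissues) against the mean level over 6 libraries for all 13460 genes tested (grey), primary-cilium (green) and motile-cilium (orange) members. Of 35 motile members 17 have an SD above 0.3 and of 25 primary members 1 does.

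Other genes of the same machinery, from lists with other symbols, showed both directions. Among 8 motor genes of IFT 3 were higher in CP and none in GZ (37.5% called, against 45.4% of all genes tested): KIF3B (2.19-fold), KIFAP3 (1.41-fold) and KIF3C (1.29-fold), all of kinesin-2. KIF3B, a motor subunit that also works in axons, had 6.41, 6.21 and 6.44 in CP and 5.23, 5.02 and 5.42 in GZ (-1.13 ± 0.11, adjusted p = 3.00e-04). Its partner KIF3A (-0.23 ± 0.19) and the dynein-2 heavy chain gene DYNC2H1 (-0.21 ± 0.16) did not pass. Without both libraries numbered 1 KIF3B alone of these was called. Of 5 IFT subunits with other symbols, TTC21B, an IFT-A gene, was 1.42-fold higher in GZ (0.51 ± 0.08, adjusted p = 0.0019). Of 5 further BBSome-related genes ARL6, the GTPase that recruits the BBSome to membranes, was 1.45-fold higher in CP (adjusted p = 0.019), a call lost without CP replicate 1 or 2 or GZ replicate 1 (adjusted p = 0.064, 0.058 and 0.059).

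Ciliary membrane and trafficking genes were mostly higher in GZ. Of 13 tested 9 were higher in GZ and UNC119, singled out after its values were seen, was higher in CP. Of all genes tested 24.5% were higher in GZ and 20.9% in CP. Without both libraries numbered 1 the counts were 5 and 0, where 1647 and 1716 of all 13460 genes passed. Leaving out single libraries gave 5 to 9 higher in GZ. EVC, which acts on Hedgehog signals at the cilium base, had 2.00, 1.63 and 1.90 in CP and 3.26, 3.07 and 2.91 in GZ, a 2.36-fold difference. The Hedgehog transducer SMO was 1.98-fold and TULP3, an adaptor that brings receptors into cilia, 1.78-fold higher in GZ.

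Genes of the cilium base and of disassembly are set beside all genes tested, of which 24.5% were higher in GZ and 20.9% in CP. In the transition zone list 5 of 19 were higher in GZ and RPGRIP1L, also singled out afterwards, was higher in CP (1.45-fold). Without both libraries numbered 1 the counts were 2 and 0, where 1647 and 1716 of all 13460 genes passed. The 31.6% called lay below the 45.4% of all genes. GLIS2 was 1.91-fold, KIAA0586 1.68-fold and TMEM216 1.56-fold higher in GZ, and without GZ replicate 2 TMEM216 had an adjusted p of 0.0502. Leaving out single libraries gave 2 to 5 in that list. Of 13 early ciliogenesis genes 5 were higher in GZ, led by the distal appendage gene CEP83 (2.29-fold) and CEP97 (1.96-fold), and 2 were higher in CP, led by RABL2B (1.85-fold). Leaving out single libraries gave 3 to 4 higher in GZ and 1 to 2 in CP. Without both libraries numbered 1 these counts were 3 and 1. Of 9 disassembly genes 7 were higher in GZ, with AURKA 3.27-fold, NEK2 3.24-fold and NDE1 3.14-fold, and NEDD9 was higher in CP (1.22-fold, adjusted p = 0.045). Leaving out single libraries gave 7 to 8 disassembly genes higher in GZ and 0 to 1 in CP. Without both libraries numbered 1 these counts were 7 and 0. AURKA, NEK2 and NDE1 also act in mitosis, AURKA is on the cell cycle marker list too, and all 12 markers of that list were higher in GZ. The part of dividing cells in the count was not tested.

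Of 22 tested motile axoneme genes with other symbols, 5 had the higher level in CP and MNS1 in GZ. The 27.3% called lay below the 45.4% of all genes, and 20.9% of all genes were higher in CP. The list had a median difference of -0.17. Without both libraries numbered 1, 2 were higher in each tissue, where 1647 of all 13460 genes were higher in GZ and 1716 in CP. DNAL1, a dynein light chain gene, had 3.80, 3.52 and 3.66 in CP and 2.71, 2.85 and 2.57 in GZ, a 1.93-fold difference in favour of CP (-0.95 ± 0.13, adjusted p = 0.0012). TEKT2, a tektin of the doublet microtubules, was 1.87-fold higher in CP. MNS1 was 1.82-fold higher in GZ (adjusted p = 0.019), and its call was lost without CP replicate 2 or 3 or GZ replicate 1 or 2 (adjusted p = 0.065, 0.063, 0.064 and 0.059). Counts without single libraries were 3 to 6 higher in CP and 0 to 2 in GZ. Of 13 genes of dynein arm assembly 23.1% were called: 2 were higher in GZ, DNAAF9 (1.45-fold) and DNAAF5 (1.23-fold), and DNAAF4 was higher in CP (1.61-fold). The DNAAF9 call held under all alternatives. DNAAF4 was lost without any 1 of the CP replicates 1 and 2 or the GZ replicates (adjusted p from 0.073 to 0.134), and DNAAF5 without CP replicate 2 or 3 or any GZ replicate (0.063 to 0.154). Without both libraries numbered 1 neither was called.

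Of 12 tested genes of ciliary transcription and centriole amplification 41.7% were called, near the 45.4% of all genes. GZ had the higher level of 4, and DEUP1, a centriole amplification gene, was higher in CP (adjusted p = 0.036), a call kept among single left-out libraries for CP replicate 3 only (adjusted p up to 0.107 for the others). RFX2, a regulatory factor of ciliary promoters, had 2.19, 1.62 and 1.38 in CP and 2.66, 3.15 and 2.53 in GZ, a 2.07-fold difference in favour of GZ (1.05 ± 0.25, adjusted p = 0.012). MYB, which acts early in multiciliated cells and in proliferating progenitors, was 2.14-fold higher in GZ. RFX3 stood higher in all GZ libraries and did not pass (0.46 ± 0.17, adjusted p = 0.055), although it did without CP replicate 1 (adjusted p = 0.025).

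Cytoplasmic dynein 1, the related motor outside cilia, is given for comparison. Of 10 genes tested 2 were higher in CP and 1 in GZ, and 7 did not pass. The 30.0% called lay below the 45.4% of all genes tested, and the median difference was -0.08. DYNC1I1, its neuronal intermediate chain, had 6.55, 6.42 and 6.10 in CP and 2.82, 3.02 and 2.86 in GZ, a 10.98-fold difference in favour of CP (-3.46 ± 0.13, adjusted p = 9.93e-06). PAFAH1B1 was 1.35-fold higher in CP. DYNC1H1, the heavy chain, was 1.21-fold higher in GZ (adjusted p = 0.037), a call lost without CP replicate 2 or 3 or GZ replicate 1 or 3 (adjusted p = 0.078, 0.127, 0.116 and 0.077). It was also lost without both libraries numbered 1.

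**Figure D5:**
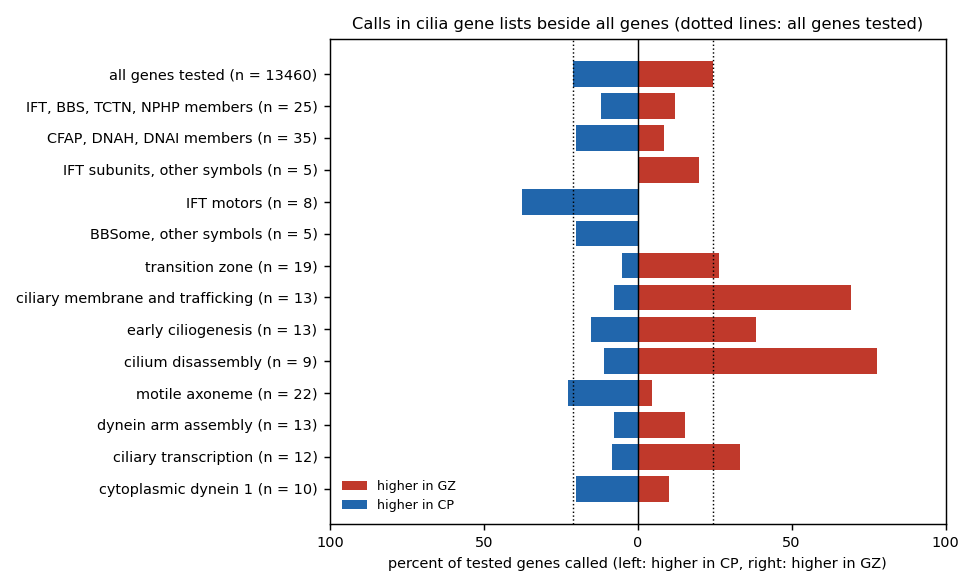
Percent of tested genes higher in CP (blue, to the left) and higher in GZ (red, to the right) by limma at an adjusted p under 0.05, for all genes, the 2 groups of members and 11 lists of related genes, with the number tested in brackets. Dotted lines mark 20.9% and 24.5%, the shares of all genes tested, and both groups of members stay inside them.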

How the data were processed

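The deposited log2 FPKM values of the RNA libraries had been cqn-normalized by the authors, per the labels. STAR and 2 macaque builds, rheMac8 and Mmul_8.0.1, appear in the submitters' processing notes with no role stated. For the read counter and the gene annotation, the sources used here give nothing. A reference table gave symbols for 14700 of 22345 gene IDs (65.8%). The 13460 genes averaging at least 0 over the 6 libraries entered limma 3.58.1 in R 4.3.3 (lmFit, eBayes with trend, GZ minus CP, without block or pseudocount). P-values were Benjamini-Hochberg adjusted over all of them, with a threshold of 0.05. The code was tested on simulated data. Summaries used Python 3.11.15 and pandas 2.3.3.

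Members, gene lists and tests were chosen with earlier results of these data known. Values in every library are given for up to 3 called members per family and direction with the largest difference, the member with the highest mean, and, in families without a call, the member of largest difference. From each other list up to 3 called genes were named, besides a few fixed genes. Some genes that the rule would name are not reported here, though they stay in the counts. The 15 alternatives covered the replicate block, stricter and absent filters, adding a pseudocount of 1, centring on medians, quantile scaling, limma without trend or with robust variances, leaving out single libraries, and leaving out both numbered 1.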

Additional observations from a re-analysis of the deposited data

How the results depend on the processing

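Of 16 called members 8 passed under all 15 alternatives, 7 members that did not pass did so under at least 1, and 37 passed in no setting. Without both libraries numbered 1 the calls over all 13460 genes were 3363 (1647 for GZ and 1716 for CP). Among members 2 of 25 primary (0 higher in GZ) and 6 of 35 motile (1 higher in GZ) remained past the threshold, with fewer libraries in the fit. Without the mean-variance trend 5 primary members stood higher in GZ. Leaving out single libraries gave 1 to 3 motile members higher in GZ and motile medians from -0.364 (without CP replicate 3) to -0.0873. The replicate block gave 13 motile calls (9 for CP and 4 for GZ) and 6 primary ones, adding CFAP90, CFAP97 and DNAI1 (adjusted p = 0.0041, 0.047 and 0.030), with RFX3 gained (0.047) and DNAAF5 lost (0.060) outside them. Same-numbered libraries deviated together for numbers 2 and 3 and not for number 1, and some differently numbered ones also did (CP 2 with GZ 1, 0.200). The labels do not say what the shared numbers stand for, so whether they pair the samples is unknown. DNAAF5 was also lost with no filter on low values and DYNC1H1 without the trend (adjusted p = 0.081 and 0.079). With no filter the median difference of all genes was 0.21 against 0.05. Read depth is unknown, which leaves the precision of low members, most DNAH genes among them, to the spread between 3 libraries.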
